A study of Bos taurus with 2 samples.

Results

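The genes described here encode the WNT ligands, their receptors and the secreted proteins that modulate them, as measured in bull testis on a bovine oligonucleotide array. They were chosen by name: every non-control probe whose gene name is WNT, FZD, SFRP, RSPO, DKK or DVL followed by a number, together with WIF1, LRP5, LRP6, RYK, ROR1, ROR2, SOSTDC1 and PORCN. This gave 96 probes on 106 spots for 48 genes, out of 51282 probes on 61657 spots for 32429 gene names. One group was the testis of 3 crossbred bulls with Holstein Friesian ancestry, whose exotic share was 50% to 75%, and the other was the testis of 3 Zebu bulls of the Tharparkar breed. All bulls were 24 months old, and the testis was removed by castration on one side. RNA of the 3 bulls of a group was pooled in equal amounts, and each pool was hybridised to 1 Cy3 array. The difference between the arrays therefore has no replicate check: the spread between bulls cannot be seen, no p-value is given, and a difference is one between these 2 pools.

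WNT proteins are secreted lipid-modified ligands that bind a Frizzled receptor together with a co-receptor of the LRP family, and the signal passes through Dishevelled to stabilise beta-catenin, which then acts with nuclear partners on target genes. Other WNT signals run through the kinase-type receptors ROR and RYK without beta-catenin. SFRP and WIF1 proteins bind the ligands outside the cell, most DKK proteins and SOSTDC1 bind the co-receptors, and R-spondins raise the response by keeping Frizzled receptors at the cell surface. In the gonad, RSPO1 is best known as a factor of ovary development, and WNT signals are known to act on spermatogonia in the mouse.

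Each probe is 60 bases long, and the first 30 bases, 5′ to 3′, are shown for most of the probes on which the differences below turn, because a difference at a gene read by 1 probe is a difference at that stretch. Coordinates are those of the array files, on build HGSC Btau_3.1, and the place of a probe within a transcript was not determined here. The first RSPO1 probe lies at chr3:115486378-115486437 on the plus strand, and the second covers chr3:115482420-115484486, which is longer than a probe. RSPO3 was read at chr9:25040153-25040212, WNT2 at chr4:53207457-53207516, WNT3 across chr19:46901735-46902368, SFRP1 at chr27:38624484-38624543 and FZD4 at chr29:8907747-8907806.
RSPO1 probe 1: tgactttatccttggagagaactgttacac
RSPO1 probe 2: atactttgatgcgcgcaaccctgacatgaa
RSPO3: aattgtccacatgaaactaaaagggatact
WNT2: agaaaatgtgtctgtacaacatgataaggg
WNT3: ccatgaacaagcacaacaacgaggctggcc
WIF1 probe 2: agtcaattgcgataaagcaaattgctcagc
DKK2: agcgtggagcacagagaatctgcaacatag
SFRP1: catgcttttcctgccatgtatcaatattca
FZD4: cgtttcttggcaactttgcattcacacaga

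A level here is the log2 of the background-subtracted signal minus the 75th percentile of its own array, so a level of 0 is a bright probe, and levels of different probes are not compared. That percentile was a signal of 1176 for the crossbred pool and 1233 for the Zebu pool. A gene is represented by its brightest probe, and a difference is the crossbred level minus the Zebu level. A difference was called when it reached 1.5 on the log2 scale and the brighter side exceeded background clearly by the scanner's own flag, here called measured. Where the dimmer side lacked that flag, it is written as not well above background and a bound is given as "at least N-fold". The bound is set against the dimmest signal still measured on that array, or against the dim signal itself where that was brighter. A signal without the flag can lie above the dimmest measured one, as for WNT10B in the crossbred pool, so a bound is approximate. Medians and counts below 0 take a gene with a dim side at its bound. The call, after the rule of the threshold, takes the difference of the signals as they stand. Over 5962 probes spotted more than once, the SD of the difference between spots of a probe was 0.33. This spot SD covers spotting and scanning and not the spread between bulls. It was 0.28 over 5871 probes with the spots in a dark and a bright patch of the slide left out.

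Of the 48 genes, 37 were measured in at least 1 pool and 33 in both. WNT3A was measured on the crossbred array only, and WNT10B, ROR2 and SOSTDC1 on the Zebu array only. The 11 genes measured on neither array were WNT1, WNT7A, WNT8A, WNT8B, WNT9A, WNT9B, WNT10A, WNT16, FZD5, DKK4 and RSPO4. RSPO1, WIF1, WNT2, WNT3 and DKK2 were called higher in the crossbred pool, and RSPO3, SFRP1, FZD4, ROR2 and SOSTDC1 were called lower. That is 5 of 37 in each direction, or 13.5%, where 7.23% of the 24757 gene names measured were called higher and 2.99% lower, 10.2% in all. ROR2 and SOSTDC1 were not well above background in the crossbred pool and their bounds do not reach the threshold, so among the 33 genes measured on both arrays 5 were higher and 3 lower, beside 6.41% and 1.76% of 22828 gene names. The median difference of the 37 genes was −0.36 with 25 below 0, beside −0.05 with 52.8% below 0 over all gene names measured.

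**Figure D1:**
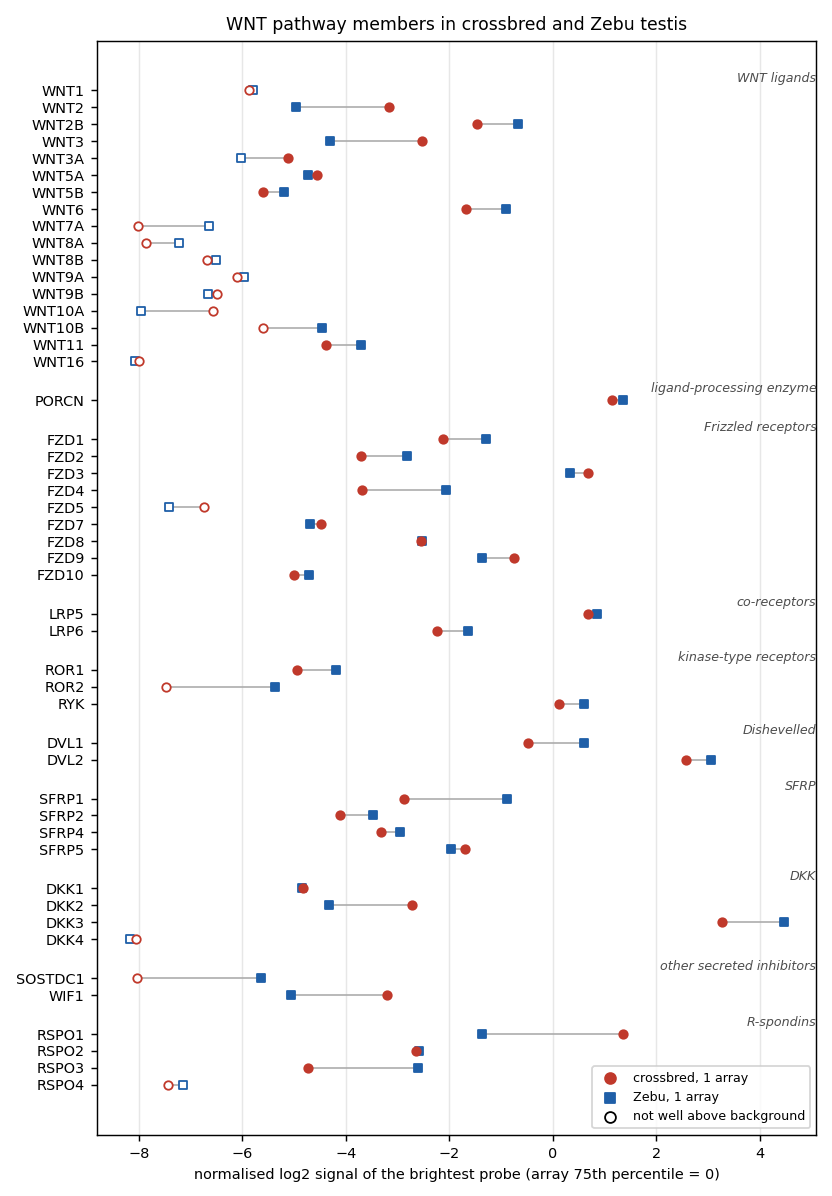
Level of the brightest probe of each of the 48 genes on the crossbred and the Zebu array, 1 point per array. Levels are in log2 units relative to the 75th percentile of the array, and open symbols were not well above background. RSPO1 stands apart, at 1.36 for the crossbred pool and −1.37 for the Zebu pool, while DKK3 is bright on both.

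The share of calls depends on brightness, and many of these genes were dim. Among the 13 genes with a mean level below −4, 2 were called higher and 2 lower, where the shares over all gene names in that band were 7.67% and 6.97%. Between −4 and −2, 2 of 9 were called higher and 2 lower, beside 8.58% and 3.41%. Between −2 and 0, 1 of 8 was called higher and 1 lower, beside 6.91% and 2.45%. None of the 7 genes above 0 was called in either direction, where the shares over all gene names were 6.44% and 0.794%.

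**Figure D2:**
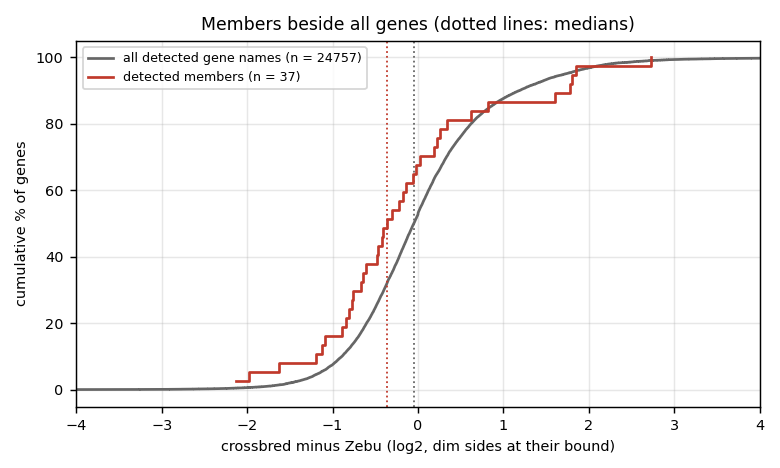
Cumulative share of genes against the difference, crossbred minus Zebu in log2 units, for the 37 measured WNT genes and for all gene names measured. The curve of the WNT genes lies to the left around its median of −0.36, and the curve of all gene names has its median at −0.05.

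The WNT ligands activate the pathway, and 9 of 17 were measured, with a median difference of −0.42. WNT2, a ligand that can stabilise beta-catenin, had a signal of 131 in the crossbred pool and 39.3 in the Zebu pool, a difference of 1.81. WNT3, a ligand of early axis formation, had a signal of 205 and 62.6, a difference of 1.78. Both were dim, and both were read by 1 probe. Both lost their call after a normexp background correction with an offset of 50, at 0.99 and 1.16. An offset of that size shrinks the difference of any dim probe. A call lost after normexp, here and below, therefore does not tell whether the difference came from background. WNT3A, the close relative of WNT3, was at least 1.77-fold higher in the crossbred pool. For WNT10B the probes disagreed: the brighter one was at least 2.19-fold lower in the crossbred pool, and the other was at least 1.38-fold higher. The remaining ligands did not reach the threshold. WNT2B was lower by both of its probes, at −0.80 and −1.17, and WNT6 by all of its probes, at −0.77, −0.64 and −0.47. WNT11, a ligand of the route without beta-catenin, differed by −0.67. WNT5A, a ligand of ROR2, differed by 0.19, within the spot SD, and WNT5B by −0.42, just beyond it. The WNT5B value rests on 1 dim probe, with signals of 24.1 in the crossbred pool and 33.7 in the Zebu pool. That probe shares a run of 20 bases with another gene name on the array, and the other WNT5B probe was measured on neither array. PORCN, the enzyme that attaches the lipid to WNT proteins, differed by −0.23 and by −0.48 at its second probe.

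Ligand genes that neighbour each other in the genome differed in whether they could be measured. By gene order in assembly ARS-UCD2.0, WNT3 neighbours WNT9B, WNT6 neighbours WNT10A, WNT10B neighbours WNT1 and WNT3A neighbours WNT9A. In each of these 4 pairs the first gene was measured on at least 1 array and the second on neither.

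Among the Frizzled receptors, 8 of 9 were measured, with a median of −0.16 that moved to 0.01 after normexp. FZD4, which also serves as the receptor of norrin in vessels, had a signal of 91.7 in the crossbred pool and 296 in the Zebu pool, a difference of −1.62. The call rested on 1 of its 4 probes: a second was measured on the Zebu array alone with no usable bound, and the others were on neither, and after normexp the difference was −1.05. FZD1 was lower at both probes measured on both arrays, at −0.84 and −0.86, and at least 1.97-fold lower at the remaining probe, and FZD2 differed by −0.89. FZD3, a receptor of the planar polarity route, differed by 0.34 at its brightest probe and by 0.28, 0.32, 0.38 and −0.47 at the others, of which some overlap in sequence. For FZD7 the probes disagreed in sign, at 0.22, −0.58 and −0.86. FZD8 and FZD10 lay within the spot SD at their brightest probes, at −0.03 and −0.30, but FZD10 was past the 0.28 found without the patches. The other FZD8 probes were at −0.28 and at least 1.27-fold lower, the latter not well above background in the crossbred pool.

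FZD9 has the only probe here whose nearest spots had a median difference past 1 in size. Smaller local shifts occurred at other genes. The brightest probes of FZD3 and FZD7 differed by 0.34 and 0.22, and the spots nearest to them had medians of 0.61 and 0.68. DKK3 differed by −1.20, with a median of −0.58 around it. A dark patch of 544 spots on the crossbred array had a median difference of −1.37, and 1 spot of the 106 lay in it, the second FZD9 probe. That probe had a signal of 4.69 in the crossbred pool and 469 in the Zebu pool, at least 20.9-fold lower, and the 15 spots read nearest to it had a median difference of −5.88. The first FZD9 probe, outside the patch, had a signal of 699 and 476, a difference of 0.62. The probes share 46 of their 60 bases, at chr25:35808684-35808743 and chr25:35808698-35808757 on the minus strand. The stretches below show the overlap, with the 16 bases common to both in capitals.
FZD9 probe 1: CATGACTAAGACAGATccttctctggagaa
FZD9 probe 2, dark patch: actgtggtcttgcaCATGACTAAGACAGAT

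The co-receptors and Dishevelled genes were below 0 at their brightest probes without reaching the threshold. LRP6, the principal co-receptor, differed by −0.61, −0.60 and −0.12 at its probes, and LRP5 by −0.18 at its brightest probe with others between −0.39 and 0.35. DVL1, which relays the signal inside the cell, differed by −1.09. DVL2 differed by −0.48 at its brightest probe and by −0.06 and 0.59 at the others, so its probes had no common sign. The kinase-type receptors had a median of −0.47 with ROR2 at its bound. RYK was lower at each probe measured on both arrays, at −0.47, −0.99 and −1.39, and at least 1.79-fold lower at the fourth. ROR1 differed by −0.76, but its spots were apart, at −1.18 and −0.34, and the difference was −0.27 after normexp. The other ROR1 probe was measured on neither array. ROR2, a receptor of WNT5A, had signals of 8.98 and 4.82 at its spots in the crossbred pool, not well above background, and 31.5 and 28.0 in the Zebu pool, at least 1.32-fold lower.

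The SFRP proteins, decoys that share the ligand-binding domain of the Frizzled receptors, had a median of −0.50. SFRP1 had a signal of 161 in the crossbred pool and 663 in the Zebu pool, a difference of −1.97. Its other probes differed by −1.09 and −1.47, so all pointed the same way. The difference was −1.65 after normexp, and the median over the probes, −1.47, lay below the threshold. SFRP2 was lower at both probes, at −0.65 and −1.01. SFRP4 differed by −0.36, with a second probe at least 1.45-fold lower, and SFRP5 by 0.26.

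The DKK genes did not move as a group, with a median of 0.02 that changed sign between settings. DKK3, a divergent member whose part in WNT signalling is unsettled, had a signal of 11325 in the crossbred pool and 27217 in the Zebu pool, a difference of −1.20. DKK2 had a signal of 178 and 61.3, a difference of 1.60, and 0.99 after normexp. Its other probe, measured on the Zebu array alone, pointed the other way, at least 1.05-fold lower. DKK1, the classical co-receptor antagonist, differed by 0.02, with a second probe at least 1.49-fold lower.

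WIF1, a decoy that binds WNT ligands, was higher in the crossbred pool at both probes. Its first probe had signals of 131 and 123 at the spots of the crossbred array and 44.0 and 31.1 on the Zebu array, a mean difference of 1.85. The second probe, with signals of 81.9 and 34.3, differed by 1.32. After normexp the first probe was at 1.04, below the threshold. SOSTDC1, which inhibits both WNT and BMP signals, had a signal of 4.50 in the crossbred pool, not well above background, and 24.8 in the Zebu pool, at least 1.11-fold lower.

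Among brightest probes measured on both arrays, the R-spondins held the highest and the lowest difference. RSPO1 had signals of 3174 and 2878 at the spots of its first probe in the crossbred pool, and 450 and 507 in the Zebu pool. The spots differed by 2.89 and 2.57, with a mean of 2.73, and the arrays did not overlap. Its second probe had a signal of 83.8 in the crossbred pool and 16.3 in the Zebu pool, not well above background there, and was at least 4.37-fold higher. After normexp the difference of the first probe was 2.54. RSPO3, also an enhancer of WNT signals, had a signal of 44.2 in the crossbred pool and 203 in the Zebu pool, a difference of −2.13 at its only probe, and −1.31 after normexp. RSPO2 differed by −0.06.

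**Figure D3:**
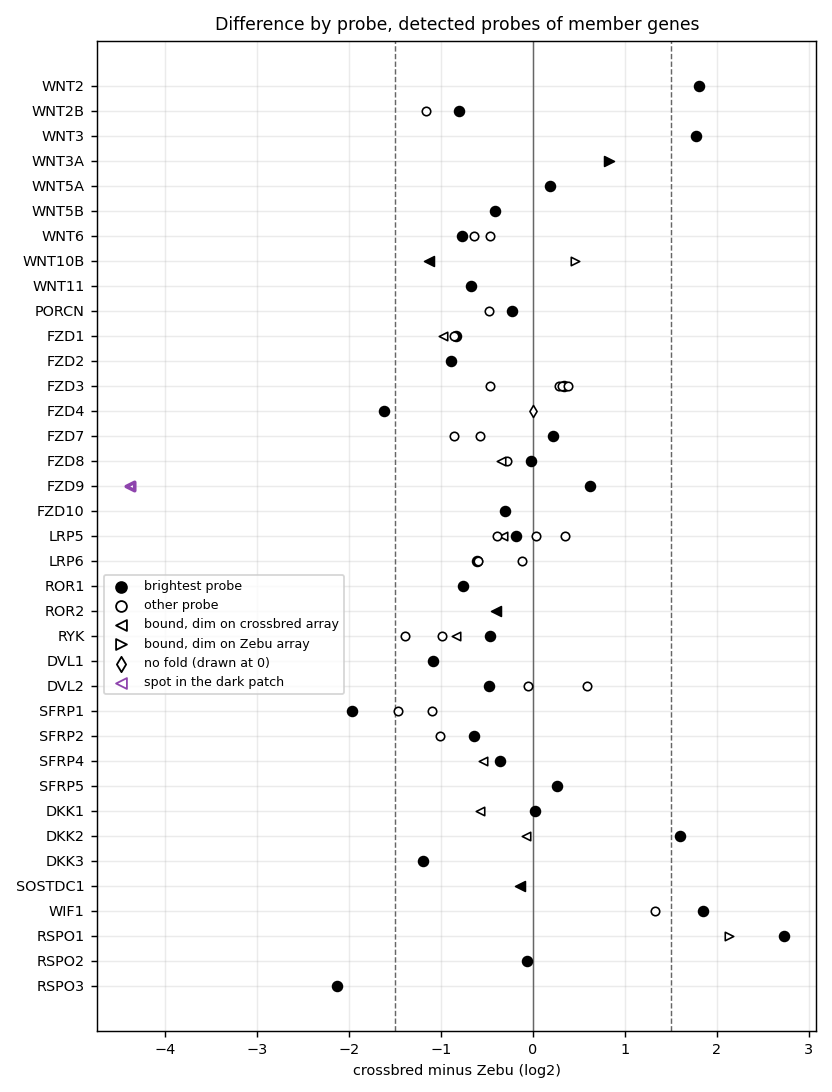
Difference of each measured probe, crossbred minus Zebu in log2 units, with 1 row per gene, filled symbols for the brightest probe, triangles for bounds and dashed lines at the threshold of 1.5. The probes of RSPO1, WIF1 and SFRP1 fall on one side of 0, while those of FZD9 and WNT10B fall on both.

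Probes of a gene share the RNA pool and are not replicates, but they show how far a value rests on one stretch. Of 21 genes with more than 1 probe measured, 12 had the same sign at every probe, 10 of them lower and 2 higher, the latter being RSPO1 and WIF1. In 14 genes several probes were measured on both arrays, and in 12 of these their differences spanned less than 1, with a median span of 0.50. Over the 73 probes measured, 7 were called higher and 10 lower, or 9.59% and 13.7%, beside 6.14% and 2.99% of all 39804 probes measured. These probes fall in 6 and 9 genes, and 7 of the lower ones were not well above background in the crossbred pool. Of the 10 genes called, 4 had a single probe on the array.

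Genes that act further along the pathway or beside it were taken from a list of 56, of which 54 were on the array and 51 were measured. In the crossbred pool 3 were called higher and 1 lower, or 5.88% and 1.96%, beside 7.23% and 2.99% of all gene names, so the shares were no larger than the background. Their median difference was −0.36 with 32 below 0. CSNK1G1, a kinase of the casein kinase family that acts on LRP6, differed by 2.21, and KREMEN1, the partner of DKK proteins at the co-receptor, by 1.82. TNFRSF19 was measured on the crossbred array alone and was at least 4.51-fold higher. NKD2, which binds Dishevelled, differed by −1.64, and by −1.11 at its other probe. With the median of probes it lost its call, and GPC3 was called lower instead. CTNNB1, which encodes beta-catenin, differed by −0.46. AXIN2, a member of the destruction complex that is also a widely used target, had levels of −5.20 and −3.70, just short of the threshold, and was called lower with a median shift, with the percentile over probes measured on both arrays, with the deposited values and with the slide patches left out.

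**Figure D4:**
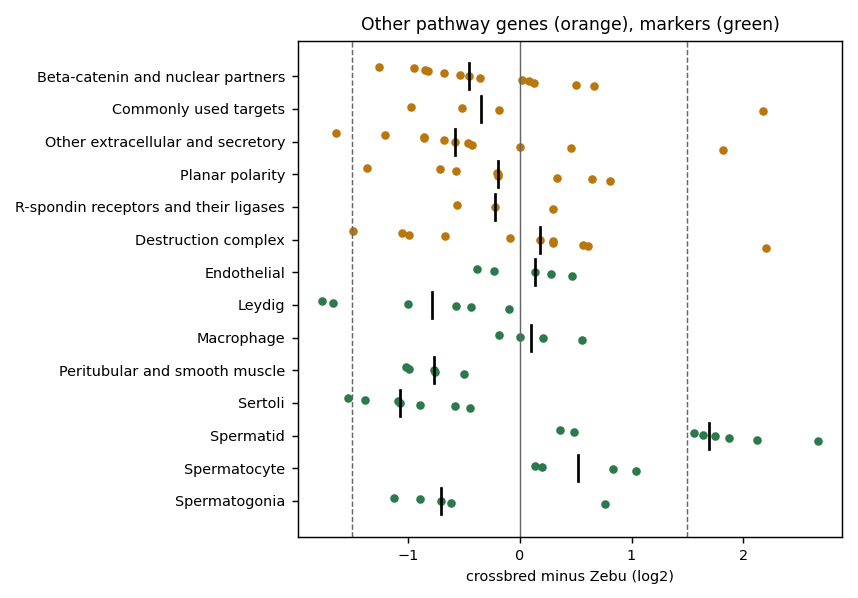
Differences, crossbred minus Zebu in log2 units, for the other genes of the pathway by role and the markers of testis cell types, 1 point per gene, with a black bar at each median and dashed lines at the threshold of 1.5. The Leydig, Sertoli and peritubular markers lie below 0 and the spermatid markers above it.

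Markers of the cell types of the testis moved between the pools as well. The lists hold genes that the study itself reports as changed on these same arrays. They are ACRV1, SPACA4, TNP1, TNP2, TSSK3 and ODF1 as higher, and CYP17A1, HSD3B1 and DHH as lower. The direction of part of the markers was therefore known beforehand, and the counts below are a description only. All 18 markers of Leydig, Sertoli and peritubular cells that were measured were lower in the crossbred pool, with medians of −0.79, −1.08 and −0.77. Their summed signals, before scaling, were 103224 against 163386, 64646 against 127894 and 34441 against 63592. A sum is led by its brightest probes: most of the Leydig sum was INSL3, which differed by −0.44. All 8 spermatid markers were higher, with a median of 1.69 and a summed signal of 595861 against 326432, and all 4 spermatocyte markers measured were higher, with a median of 0.52. The spermatogonia markers had a median of −0.71, with 4 of 5 below 0. Endothelial and macrophage markers had medians of 0.13 and 0.10, and none of the 3 epididymis markers on the array was well above background. In a pool of whole tissue, fewer cells of a type and less RNA per cell cannot be told apart, and the part of these shifts in the differences of the WNT genes was not tested.

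**Figure D5:**
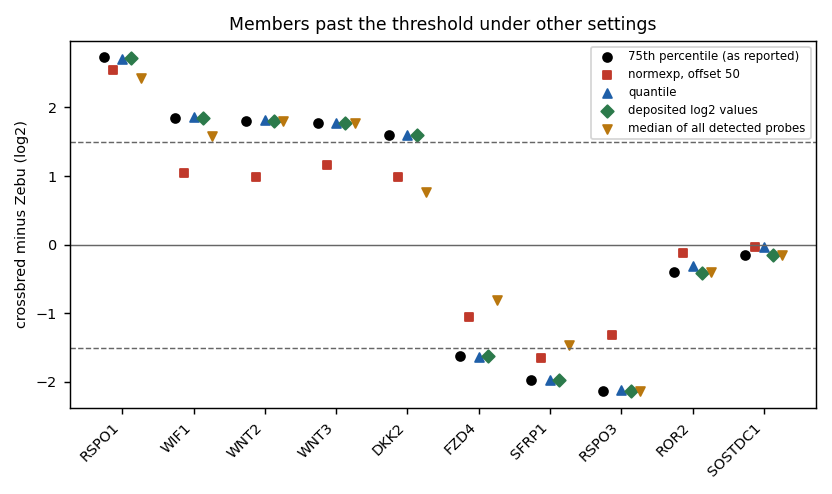
Difference of the called genes, crossbred minus Zebu in log2 units, under 5 processing settings, 1 symbol per setting, with dashed lines at the threshold of 1.5. RSPO1 and SFRP1 stay beyond the threshold after normexp, at 2.54 and −1.65, and ROR2 and SOSTDC1, dim in the crossbred pool, are drawn at their bounds under every setting.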

How the data were processed

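Testis RNA of 3 bulls per group was pooled and hybridised to 1 array per pool. The authors quantified the images with Agilent Feature Extraction 11.5.1.1, and the deposited scanner files give background-subtracted intensity per spot. The deposited table of log2 values, shifted by the authors to the 75th percentile, had column medians of −3.00 and −3.01 and was used as an alternative. Control spots and 13 outlier spots were left out, spots of a probe were averaged on the log2 scale, and the 75th percentile over probes was subtracted. All members of the name rule are described. The sequence of 1 probe is not reported here. The members and lists were chosen with earlier results of these data known. Well above background were 72.0% and 74.3% of spots, none was saturated, and with 1 array per group the number of arrays limits the precision. Alternatives were normexp correction with an offset of 50, other scalings, other probe rules, other thresholds and leaving out the slide patches. Another, chosen after seeing the data, left out genes whose nearest spots had a median difference past 1. Python 3.11.15, numpy 2.4.6, pandas 2.3.3, R 4.3.3 and limma 3.58.1 were used, and the calling step was tested on simulated data.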

Additional observations from a re-analysis of the deposited data

How the results depend on the processing

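No paired analysis was possible because each group had 1 array. No called gene changed sign under the settings with 1 value per gene. Among the other genes, DKK1, FZD7 and FZD9 did with the median of probes (−0.28, −0.58 and −1.88). DKK1 also did with the percentile over probes measured on both arrays, and FZD8 after normexp. Signs were not compared by gene over every probe, where DKK2, a called gene, had probes of both signs. After normexp 1 gene was called higher and 1 lower, RSPO1 and SFRP1, and the shares over all gene names fell to 4.23% and 0.707%. The offset of 50 in that setting shrinks the differences of dim probes over the whole array. The count of genes called lower was 3 over genes measured on both arrays, 2 with the median of probes, 8 at a log2 threshold of 1 and 16 at a linear 1.5-fold, where 1.76%, 1.76%, 8.94% and 22.3% of all gene names were lower. The counts called higher were 5, 4, 5 and 7, beside 6.41%, 6.01%, 12.9% and 21.5%. Over every probe, 10 probes in 9 genes were lower. One of the genes lower with the median of probes was FZD9, through its probe in the dark patch. The median of the ligands moved from −0.42 to −0.072 after normexp, and of the Frizzled receptors to −0.70 with the median of probes. That Frizzled value takes FZD9 at −1.88, which includes its probe in the dark patch. Over every probe, the median of the R-spondins moved to 1.03, with RSPO1 counted at both of its probes, and of Dishevelled to −0.27. With SOSTDC1 at its bound, WIF1 and SOSTDC1 had a median of 0.85, which moved to 0.50 after normexp, 1.85 over genes measured on both arrays and 1.32 over every probe. Of the other pathway genes, 1 was called higher after normexp, and 2 were called lower with a median shift, the percentile over probes measured on both arrays, the deposited values, the patches left out (AXIN2 and NKD2) or every probe (GPC3 and NKD2). The cause of the differences between the pools was not tested. ROR2 and SOSTDC1 have bounds in place of differences.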
